A study of Mus musculus with 18 samples.

Results

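Induced pluripotent stem cells made by chemical reprogramming (riPSC, 2 libraries) were compared with the mouse embryonic fibroblasts from which such a course starts (D0, 2 libraries), 4 of the 18 RNA-sequencing libraries of the series. The comparison ran across the 16439 of 55401 listed genes that had at least 1 FPKM in at least 2 of the 18 libraries, and each of these genes counts as a member. FPKM is meant to correct the fragment count of a gene for its length and for library size; in D0 a trend with length remained, described below, so levels of genes of unequal length are not strictly comparable there. A value listed at 0 can be a failed estimate, since mt-Nd1, mt-Nd2 and mt-Atp6 were listed at 0 in all 4 libraries. Differences are riPSC minus D0 on the log2(FPKM + 1) scale, which understates changes of low genes, given as value ± standard error (SE), with n = 2 libraries in each group.

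The riPSC carry the cell type label iPSC and the same strain label as the fibroblasts, 129XOG2 E13.5 embryo. R1 mouse embryonic stem cells (mESC, 2 libraries), kept like the riPSC, are quoted in a few places for scale. OG2 mice carry a fluorescent reporter driven by regulatory sequence of Pou5f1. The riPSC were maintained on a feeder layer in a serum-free N2 and B27 medium with the cytokine LIF at 1000 units/mL, the GSK3 inhibitor CHIR99021 at 3 µM and the MEK inhibitor PD0325901 at 0.2 µM. The D0 fibroblasts, at passages 1 to 3, were kept in DMEM with 10% fetal bovine serum and neither inhibitor. Cell state, medium and feeder layer therefore differ together between the groups and cannot be told apart. The labels do not say whether feeder cells were removed before RNA isolation, how many riPSC lines were used, or whether the 2 libraries of a group came from separate cultures. The p-values and SEs below rest on a within-group spread pooled over all 18 libraries, not on riPSC and D0 alone. If replicates did not come from separate cultures, those p-values reflect technical variation alone.

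Mouse pluripotent cells depend on a core of transcription factors around OCT4 (Pou5f1), SOX2 and NANOG, joined in the naive state by ESRRB, KLF factors, TFCP2L1 and others. LIF feeds this network through STAT3, and inhibition of MEK and GSK3 holds it by lowering ERK signalling and stabilising beta-catenin. Fibroblasts are defined by secreted matrix, a contractile actin cytoskeleton and mesenchymal transcription factors. Passage from one state to the other involves loss of these programmes, gain of epithelial junctions, and wide changes of chromatin and metabolism.

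The 4 libraries differed in make-up as well as in gene levels. Genes at 1 FPKM or more numbered 12627 and 12723 in riPSC, against 9550 and 10519 in D0. Transcripts of the mitochondrial genome took 28.1% and 27.0% of the FPKM sum in riPSC, against 0.437% and 1.89% in D0. Most of the riPSC share came from mt-Nd4l, with 297 exonic bases, at 136400 and 134530 FPKM of sums of 652900 and 671700. In D0 mt-Nd4l was listed at 0 and 5415 FPKM, so the share and its gap to D0 are uncertain. Weighted by exonic length, the mitochondrial share was 4.18% and 3.91% in riPSC, against 0.115% and 0.275% in D0. Of the FPKM sum, 84 ribosomal protein genes took 11.9% in each riPSC library, against 32.8% and 27.3% in D0. Depth is not stated. The smallest steps of the values in single-exon genes correspond to 39.6 and 36.1 M units in riPSC, against 32.9 and 34.1 M in D0, and whether a unit is a read or a read pair was not settled. The D0 libraries also differed more from each other than the riPSC libraries did: the median absolute difference between replicates was 0.10 in riPSC and 0.280 in D0 on the log2 scale. The fit gives both groups the same spread, pooled over all groups of the series, so an SE does not measure the spread of D0 itself.

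Genes with many exonic bases read lower in D0 relative to genes with few. Exonic length is the union of all annotated exons of a gene, which can exceed the length of the transcript present. Among coding genes with more than 8000 exonic bases the median difference of the deposited values was 1.23, among those over 4000 and up to 8000 bases 0.93, and among those over 1000 and up to 2000 bases 0. A median of exactly 0 can come from genes listed at 0 in both groups, and the number of such genes in each class was not counted. The second D0 library exceeded the first by a median of 0.256 in the longest class, so the property varied between D0 libraries too. The trend was removed from each library before the fit, which brought the medians of the 5 length classes to between -0.20 and 0.00. A trend of this kind cannot be told apart from a true lower level of long genes in fibroblasts. Calls with the values as deposited are therefore given beside the main ones.

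**Figure D1:**
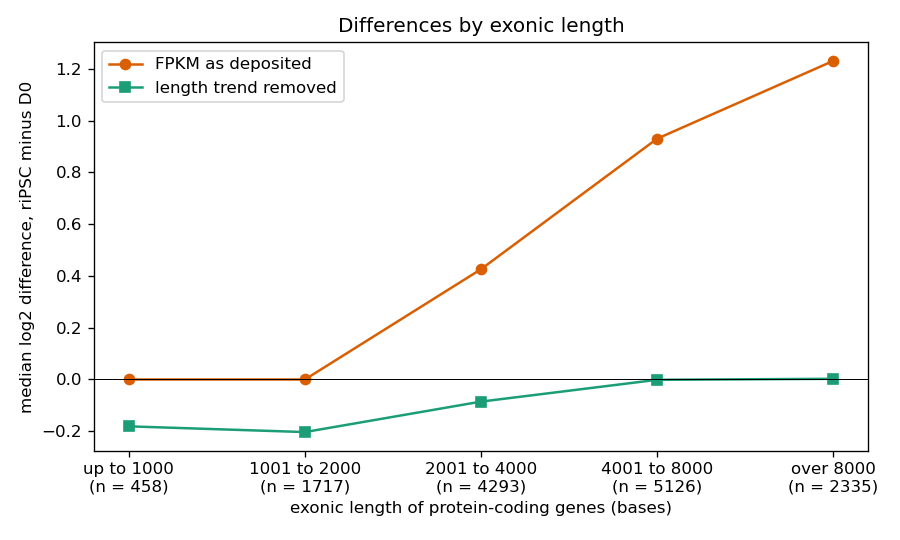
Median log2 difference, riPSC minus D0 (vertical axis), of tested protein-coding genes in 5 classes of exonic length in bases (horizontal axis, with the number of genes). Circles are FPKM as deposited and climb to 1.23 in the longest class; squares, with the length trend removed, stay between -0.20 and 0.00.

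A call required a Benjamini-Hochberg adjusted p from limma below 0.05 together with an absolute log2 difference of 1 or more. By this rule 7481 of the 16439 genes were called (45.5%). Of these, 3678 genes were higher in riPSC (22.4%) and 3803 lower (23.1%). With FPKM as deposited 8729 genes were called (53.1%), 6595 of them higher (40.1%) and 2134 lower (13%). The same call was made with and without the trend for 5812 genes (35.4%). All 3678 higher genes were also higher with the deposited values, and all 2134 genes lower with the deposited values were also lower with the trend removed. The remaining 1669 lower genes depended on the removal, and in 372 of the lower genes all 4 libraries were under 1 FPKM, where the subtraction itself moves values near 0. Removing the trend on the linear scale, an alternative chosen after seeing those genes, gave 7763 calls (47.2%), 4953 higher (30.1%) and 2810 lower (17.1%), 26 of the lower ones under 1 FPKM throughout. The median difference of all genes was -0.06 with the trend removed, 0.62 as deposited and 0.26 on the linear scale. Counted without a test, both riPSC libraries lay above both D0 libraries in 6899 genes (42%) and below them in 7455 (45.3%). No gene called in one direction was called in the other by either alternative. Differences reached far: 170 genes were at least 16-fold higher in riPSC and 216 at least 16-fold lower, and 28 and 37 passed 64-fold, on a scale where genes at 0 enter with the pseudocount of 1. Below, "higher", "lower", "rose" and "fell" refer to calls with the length trend removed, and a second pair of counts, marked as deposited, gives the calls without its removal. Every list count is to be read against the shares of all genes, 22.4% higher and 23.1% lower. For the as deposited counts these shares are 40.1% and 13%. The lists were chosen with earlier results of these data known, so their counts describe and do not test.

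All 30 genes of the naive and core pluripotency list rose, against 22.4% of all genes tested. Of the 30, 22 were listed at 0 in both D0 libraries. The list had a median fitted difference of 4.87, against -0.06 over all genes, a value that rests on the pseudocount where D0 is at 0. The list summed to 6064 and 6432 FPKM in riPSC, against 13.2 and 20 FPKM in D0. Pou5f1, the core homeodomain factor, stood at 910.2 and 969.5 FPKM in riPSC and was listed at 0 in both D0 libraries (limma adjusted p = 3.25e-15). Nanog, on chromosome 6 from 122707489 to 122714633 of GRCm38, stood at 273 and 275 FPKM in riPSC and was listed at 0 in both D0 libraries (limma adjusted p = 1.32e-14). Both genes were high in each riPSC library, and no fold is given against 0. Sox2, the HMG-box partner of OCT4, was at 234 and 257 FPKM in riPSC, against 0 and 0.182 FPKM in D0 (log2 difference 7.53 ± 0.18, limma adjusted p = 3.03e-12). Klf4, a Krüppel-like factor, was at 67.1 and 74.1 FPKM in riPSC, against 1.21 and 1.64 FPKM in D0 (log2 difference 4.35 ± 0.12, limma adjusted p = 6.97e-12); it was among the few genes of the list with a measurable level in both D0 libraries. In no gene of the list did a riPSC library reach down to the D0 libraries. Over all genes tested, both riPSC libraries lay above both D0 libraries in 42%.

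The highest level of the list was that of Dppa5a, which encodes an RNA-binding protein of pluripotent cells, at 2409 and 2611 FPKM in riPSC, against 0 and 0.0663 FPKM in D0 (log2 difference 11.11 ± 0.13). Tdgf1, a co-receptor of NODAL, had 567 and 582 FPKM in riPSC and was listed at 0 in both D0 libraries. Esrrb, an orphan nuclear receptor of the naive network, had 249 and 214 FPKM in riPSC and was listed at 0 in both D0 libraries. In these 3 genes D0 was at or near 0. Zfp42 (REX1), a zinc finger gene that marks naive cells, had 145 and 148 FPKM in riPSC and was listed at 0 in both D0 libraries, and Utf1, a chromatin-associated factor, had 116 and 136 FPKM in riPSC and was listed at 0 in both D0 libraries. Lin28a, which encodes an RNA-binding protein that blocks let-7 maturation, reached 36.4 and 38.1 FPKM in riPSC and was listed at 0 in both D0 libraries. Replicates of riPSC lay close to each other in each of these genes. In the mESC libraries Pou5f1 had 855 and 941 FPKM and Zfp42 289 and 321 FPKM.

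OCT factors bind the octamer ATTTGCAT. In the 250 bases before the RefSeq start it stood, on either strand, in 7% of 100 promoters of genes at least 16-fold higher in riPSC, in 1.49% of 2423 promoters of higher genes and in 1.39% of all 10816 tested coding genes with a RefSeq entry. It stood also in 4.64% of 151 promoters of genes at least 16-fold lower, a share also above that of all genes. No test was made of these shares. The promoters of 3 of those 7 genes are shown because they carry it; Zfp296 and Chchd10 were chosen after their values were seen. Zfp296 encodes a zinc finger protein of pluripotent cells and Chchd10 a mitochondrial protein. Capitals mark the octamer, written as ATGCAAAT where it lies on the opposite strand. It begins 186 bases before the start in Zfp42, 111 in Zfp296, and 83 and 70 in Chchd10. Zfp42 lies at chr8:43307010-43307259, minus strand, Zfp296 at chr7:19577037-19577286, plus strand, and Chchd10 at chr10:75932880-75933129, plus strand, all in GRCm38.p6.
Zfp42: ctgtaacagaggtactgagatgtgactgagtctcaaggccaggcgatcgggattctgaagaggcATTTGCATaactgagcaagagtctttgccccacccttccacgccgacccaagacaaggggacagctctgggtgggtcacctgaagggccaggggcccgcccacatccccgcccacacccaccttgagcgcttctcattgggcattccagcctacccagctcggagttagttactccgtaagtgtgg
Zfp296: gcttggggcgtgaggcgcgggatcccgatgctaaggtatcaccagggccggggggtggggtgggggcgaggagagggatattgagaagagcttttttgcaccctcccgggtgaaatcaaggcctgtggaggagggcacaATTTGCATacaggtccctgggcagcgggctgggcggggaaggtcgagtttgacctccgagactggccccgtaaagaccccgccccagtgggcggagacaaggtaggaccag
Chchd10: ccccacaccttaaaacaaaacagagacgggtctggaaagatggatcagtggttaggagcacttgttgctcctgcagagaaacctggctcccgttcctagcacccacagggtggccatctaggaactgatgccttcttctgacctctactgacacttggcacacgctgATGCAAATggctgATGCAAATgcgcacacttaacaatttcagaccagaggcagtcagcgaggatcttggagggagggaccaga
Zfp296 had 23.9 and 23.1 FPKM in riPSC and was listed at 0 in both D0 libraries, and Chchd10 had 304 and 340.3 FPKM in riPSC, against 6.79 and 6.48 FPKM in D0 (log2 difference 5.20 ± 0.20). All 3 genes were high in both riPSC libraries. The letters alone say nothing of binding.

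**Figure D2:**
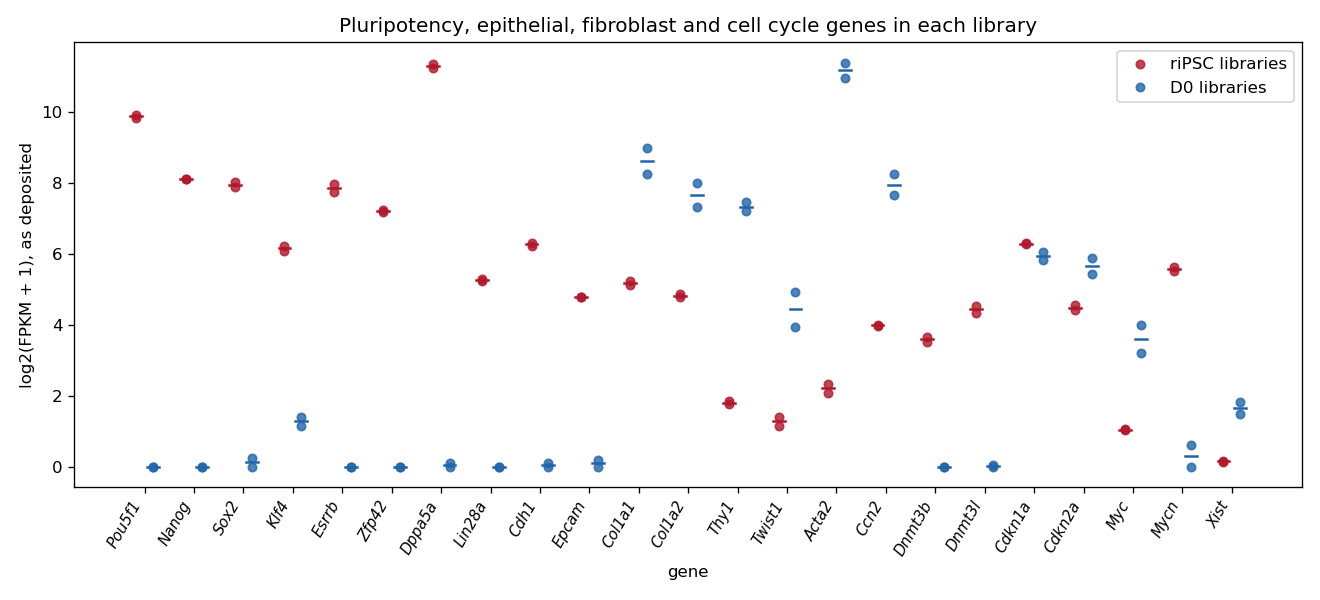
Levels of 23 genes (horizontal axis) in each library as log2(FPKM + 1) of the deposited values (vertical axis), riPSC in red on the left and D0 in blue on the right of each gene; points are libraries and short bars their mean (n = 2). The riPSC points of the pluripotency and epithelial genes lie far above D0 points at or near 0, the matrix, contractile and mesenchymal genes lie the other way round, and Cdkn1a lies close in both.

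Genes with formative or primed expression were measured at lower levels: 6 of 10 tested rose and 1 fell (as deposited 7 and 1). Nodal, a TGF-beta family ligand, had 21.4 and 22.3 FPKM in riPSC and was listed at 0 in both D0 libraries. Zic2, a zinc finger factor, was at 15.6 and 17.4 FPKM in riPSC, against 0 and 0.183 FPKM in D0 (log2 difference 3.50 ± 0.12). Lefty2, an inhibitor of NODAL, had 11.6 and 14.1 FPKM in riPSC and was listed at 0 in both D0 libraries. All 3 were listed at or near 0 in D0. The primed marker Fgf5 was too low for testing, at 0 and 0 FPKM in riPSC, against 0.521 and 0.616 FPKM in D0. Among LIF and STAT3 genes, 5 of 10 rose and none fell (as deposited 6 and 0). Those that rose most were feedback and target genes: Socs3, the inhibitor of LIF receptor signalling, was at 69.3 and 81.2 FPKM in riPSC, against 0 and 4.15 FPKM in D0 (log2 difference 4.56 ± 0.45), and the kinase gene Pim3 at 78.0 and 84.2 FPKM in riPSC, against 6.25 and 8.11 FPKM in D0 (log2 difference 2.95 ± 0.12). The signal transducer Stat3 itself was not called, at 26.8 and 29.1 FPKM in riPSC, against 12.7 and 18 FPKM in D0.

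Of 15 ERK feedback and target genes, 2 rose and 6 fell (as deposited 2 and 4). Egr1, an immediate early factor induced by ERK, was at 0.202 and 0.316 FPKM in riPSC, against 11.6 and 17.2 FPKM in D0 (log2 difference -4.37 ± 0.18, limma adjusted p = 3.28e-10). Dusp5, a nuclear ERK phosphatase, was at 1.48 and 1.57 FPKM in riPSC, against 32.1 and 36.8 FPKM in D0 (log2 difference -4.20 ± 0.18), and Phlda1 at 1.75 and 1.56 FPKM in riPSC, against 13.9 and 20.3 FPKM in D0 (log2 difference -3.08 ± 0.14). All 3 were low in both riPSC libraries, which were grown with a MEK inhibitor; the part of the medium in these levels was not tested. Etv5, an ETS factor of the FGF pathway that pluripotent cells also express, went the other way, at 67.3 and 68.8 FPKM in riPSC, against 3.02 and 3.62 FPKM in D0 (log2 difference 3.27 ± 0.19). Among 14 Wnt targets, 4 rose and 5 fell, and with the deposited values 6 rose and 2 fell, so the majority depended on the length trend. Tcf7, a TCF factor, was at 26.1 and 27.0 FPKM in riPSC, against 0 and 0.265 FPKM in D0 (log2 difference 4.17 ± 0.49), and Cdx1, a homeobox gene activated by Wnt, had 14.1 and 15.2 FPKM in riPSC and was listed at 0 in both D0 libraries. Ccnd1, the cyclin D1 gene, was lower, at 22.5 and 24.2 FPKM in riPSC, against 70.9 and 60.8 FPKM in D0 (log2 difference -2.27 ± 0.13).

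Of 23 epithelial genes tested, 12 rose, 2 fell and 9 were not called (as deposited 15 rose and 2 fell). Cdh1, which encodes E-cadherin, was at 73.2 and 78.2 FPKM in riPSC, against 0.0759 and 0 FPKM in D0 (log2 difference 5.41 ± 0.12, limma adjusted p = 1.47e-12). Cldn4, a tight junction claudin, was at 58.0 and 64.0 FPKM in riPSC, against 0.625 and 0.602 FPKM in D0 (log2 difference 5.02 ± 0.09), and Epcam, an adhesion protein of epithelia and pluripotent cells, at 26.7 and 26.3 FPKM in riPSC, against 0 and 0.144 FPKM in D0 (log2 difference 4.36 ± 0.10). The 2 lower genes, both named because they were so few, were the simple epithelial keratins Krt19 and Krt18, Krt19 being at 2.71 and 2.97 FPKM in riPSC, against 113 and 81.3 FPKM in D0 (log2 difference -4.91 ± 0.18). Cdh1, Cldn4 and Epcam were high in both riPSC libraries, and the 2 keratins in both D0 libraries.

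Of the fibroblast matrix genes, 26 of 28 fell and none rose (as deposited 25 fell and 2 rose), with a median difference of -3.95. Col1a1 and Col1a2 encode the chains of type I collagen. Col1a1 was at 33.8 and 36.5 FPKM in riPSC, against 303 and 502 FPKM in D0 (log2 difference -4.49 ± 0.20, limma adjusted p = 5.40e-10), and Col1a2 at 26.6 and 27.8 FPKM in riPSC, against 158 and 255 FPKM in D0 (log2 difference -4.10 ± 0.13). The riPSC libraries lay well below both D0 libraries, yet not at 0. Eln, which encodes elastin, was near 0 in riPSC, at 0.143 and 0.330 FPKM in riPSC, against 99.5 and 153 FPKM in D0 (log2 difference -7.80 ± 0.13), and Loxl1, an elastin cross-linking oxidase, was at 1.94 and 2.52 FPKM in riPSC, against 68.4 and 89.8 FPKM in D0 (log2 difference -5.21 ± 0.28). Tnc, the tenascin C gene, was at 2.78 and 3.76 FPKM in riPSC, against 56.1 and 81.5 FPKM in D0 (log2 difference -5.15 ± 0.60). Fn1, the fibronectin gene, was high in riPSC by its deposited FPKM and fell short of a call once the trend was removed, at 186 and 201 FPKM in riPSC, against 45.6 and 71.2 FPKM in D0 (log2 difference 0.49 ± 0.12, limma adjusted p = 0.00213). With the values as deposited, Fn1 and the proteoglycan gene Dcn were the 2 higher genes. Dcn was also called higher without D0 replicate 2. Of 12 metalloproteinases and their inhibitors tested, 9 fell and none rose (as deposited 8 and 0). Mmp14, a membrane-bound collagenase, was at 4.62 and 5.50 FPKM in riPSC, against 322 and 264 FPKM in D0 (log2 difference -6.59 ± 0.16), and the inhibitor gene Timp2 at 2.52 and 3.10 FPKM in riPSC, against 154 and 156 FPKM in D0 (log2 difference -6.05 ± 0.10).

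No matrix gene of the list was at 0 in both riPSC libraries, and the list summed to 660 and 712 FPKM in riPSC, against 2648 and 3821 FPKM in D0. The mESC, also kept on feeder, summed to 608 and 674 FPKM. How much of the matrix RNA in riPSC came from feeder cells was not tested. In bulk libraries, fewer cells of a type and less RNA per cell cannot be told apart.

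Contractile genes included the strongest falls among all genes. Of 18 genes of the smooth muscle cytoskeleton and of SRF or YAP targets, 16 fell and none rose (as deposited 15 and 0), and the median difference was -4.09. Acta2, alpha smooth muscle actin, on chromosome 19 from 34241090 to 34255590, was at 3.23 and 4.03 FPKM in riPSC, against 1980.5 and 2679 FPKM in D0 (log2 difference -9.29 ± 0.57, limma adjusted p = 1.22e-08). Tpm2, a tropomyosin, was at 7.48 and 6.03 FPKM in riPSC, against 2628 and 1629.6 FPKM in D0 (log2 difference -8.58 ± 0.25), and Myl9, a regulatory myosin light chain, at 1.61 and 1.16 FPKM in riPSC, against 646 and 788 FPKM in D0 (log2 difference -8.43 ± 0.12). Tagln (SM22) was at 6.28 and 5.92 FPKM in riPSC, against 1671 and 2192 FPKM in D0 (log2 difference -8.35 ± 0.51). These 4 genes were abundant in both D0 libraries and in single digits in both riPSC libraries. Actg2, gamma smooth muscle actin, was at 0.265 and 0.124 FPKM in riPSC, against 228 and 312 FPKM in D0 (log2 difference -8.01 ± 0.46). Ccn2, a YAP and TGF-beta target that encodes a matricellular protein, was at 14.6 and 15.0 FPKM in riPSC, against 199 and 302 FPKM in D0 (log2 difference -4.46 ± 0.23). Actn1, an alpha-actinin of non-muscle cells, was not called, at 73.8 and 78.0 FPKM in riPSC, against 34.0 and 59.7 FPKM in D0.

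Other genes with extreme falls lay outside the lists. S100a4, a calcium-binding protein gene long used as a fibroblast marker, was at 3.48 and 2.56 FPKM in riPSC, against 1332 and 972 FPKM in D0 (log2 difference -8.29 ± 0.22), and its relative S100a6 at 18.5 and 18 FPKM in riPSC, against 5496 and 3832 FPKM in D0 (log2 difference -8.09 ± 0.17). Lsp1, an actin-binding protein gene of leukocytes and mesenchyme, was at 0.223 and 0.344 FPKM in riPSC, against 195 and 211 FPKM in D0 (log2 difference -8.21 ± 0.15). In each, both riPSC libraries lay far below both D0 libraries.

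Contractile genes such as Acta2, Tagln and Myl9 are classic targets of SRF, which binds the CArG box, CC followed by 6 A or T and GG. In the same promoter windows, a CArG box on either strand stood in 3.97% of 151 promoters of genes at least 16-fold lower, in 1.81% of 2603 promoters of lower genes, in 0.66% of 2423 promoters of higher genes, and in 1.21% of 10816 promoters of all tested coding genes with an entry. The 3 promoters below are shown because they carry the box and belong to contractile genes; Cnn2 was chosen after its values were seen. Myl9 encodes a myosin light chain, Acta1 skeletal muscle actin and Cnn2 a calponin. Capitals mark the box, which begins 161, 73 and 56 bases before the start in Myl9, Acta1 and Cnn2. Myl9 lies at chr2:156775214-156775463, plus strand, Acta1 at chr8:123894776-123895025, minus strand, and Cnn2 at chr10:79988350-79988599, plus strand.
Myl9: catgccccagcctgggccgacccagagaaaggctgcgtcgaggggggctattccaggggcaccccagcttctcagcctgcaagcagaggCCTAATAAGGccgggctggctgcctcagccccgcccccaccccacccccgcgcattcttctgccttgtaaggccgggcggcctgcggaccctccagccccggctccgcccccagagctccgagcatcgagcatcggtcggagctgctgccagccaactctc
Acta1: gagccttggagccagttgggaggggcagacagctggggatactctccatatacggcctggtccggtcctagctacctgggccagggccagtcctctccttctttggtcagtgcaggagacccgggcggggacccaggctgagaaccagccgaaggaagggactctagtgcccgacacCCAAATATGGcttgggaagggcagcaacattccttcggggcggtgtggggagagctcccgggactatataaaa
Cnn2: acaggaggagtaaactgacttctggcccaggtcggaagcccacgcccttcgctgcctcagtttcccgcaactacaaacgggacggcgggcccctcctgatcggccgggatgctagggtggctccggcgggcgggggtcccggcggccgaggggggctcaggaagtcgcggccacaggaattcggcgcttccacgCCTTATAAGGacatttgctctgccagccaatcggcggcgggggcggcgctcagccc
Cnn2 had 7.16 and 7.51 FPKM in riPSC, against 545 and 572 FPKM in D0 (log2 difference -6.46 ± 0.14), and Acta1 had 0.136 and 0.137 FPKM in riPSC, against 41.9 and 42.4 FPKM in D0 (log2 difference -5.45 ± 0.17). All 3 genes were low in both riPSC libraries and high in both D0 libraries. A match is a description of letters and shows neither binding nor a cause.

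Mesenchymal transcription factors fell in 17 of 19 tested and rose in none (as deposited 13 fell and 1 rose). Twist2, a basic helix-loop-helix factor of mesenchyme, was at 0.320 and 0.749 FPKM in riPSC, against 106 and 124 FPKM in D0 (log2 difference -6.82 ± 0.13, limma adjusted p = 4.49e-13), and Twist1 at 1.22 and 1.66 FPKM in riPSC, against 14.3 and 29.5 FPKM in D0 (log2 difference -3.36 ± 0.26). The homeobox genes Prrx2 and Prrx1 were at 1.20 and 1.38 FPKM in riPSC, against 71.8 and 88.2 FPKM in D0 (log2 difference -5.41 ± 0.10) and at 1.37 and 1.38 FPKM in riPSC, against 11.5 and 19.07 FPKM in D0 (log2 difference -3.97 ± 0.14). Tbx15, a T-box factor of mesoderm, was at 0.615 and 0.236 FPKM in riPSC, against 39.3 and 20.5 FPKM in D0 (log2 difference -5.05 ± 0.30). All 5 were low in both riPSC libraries. Zeb1, a repressor of E-cadherin, was not called, at 4.40 and 4.74 FPKM in riPSC, against 0.624 and 1.43 FPKM in D0, and was the 1 higher gene with the deposited values.

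Surface proteins of fibroblasts fell in 16 of 19 and rose in none (as deposited 13 and 0). Thy1, a glycoprotein used to sort fibroblasts, was at 2.36 and 2.60 FPKM in riPSC, against 147 and 173 FPKM in D0 (log2 difference -6.05 ± 0.14, limma adjusted p = 1.72e-12). Pdgfrb, a receptor for platelet-derived growth factor, was at 1.71 and 1.66 FPKM in riPSC, against 28.9 and 31.5 FPKM in D0 (log2 difference -4.48 ± 0.13), and the hyaluronan receptor gene Cd44 at 1.24 and 1.32 FPKM in riPSC, against 16.3 and 24.3 FPKM in D0 (log2 difference -4.28 ± 0.31). In the TGF-beta and activin list 9 of 16 fell and 3 rose (as deposited 9 and 5), with the ligand genes Tgfb3 at 0.429 and 0.426 FPKM in riPSC, against 41.3 and 61.4 FPKM in D0 (log2 difference -5.78 ± 0.16) and Tgfb1 at 1.44 and 1.64 FPKM in riPSC, against 31.3 and 31.9 FPKM in D0 (log2 difference -4.56 ± 0.26). In the insulin-like growth factor axis 7 of 11 fell and 2 rose (as deposited 6 and 3), among them the binding protein genes Igfbp6, at 0.156 and 0.313 FPKM in riPSC, against 125 and 102 FPKM in D0 (log2 difference -6.73 ± 0.15), and Igfbp4, at 6.58 and 7.34 FPKM in riPSC, against 83.2 and 83.8 FPKM in D0 (log2 difference -4.18 ± 0.15). These ligand and binding protein genes were low in both riPSC libraries. Of 13 chemokines and cytokines, 7 fell and 1 rose by both sets of values. Cxcl12, a stromal chemokine, was at 0.340 and 0.228 FPKM in riPSC, against 16.8 and 29.4 FPKM in D0 (log2 difference -5.33 ± 0.24), and Ccl7 at 3.49 and 3.91 FPKM in riPSC, against 88.6 and 95.9 FPKM in D0 (log2 difference -4.48 ± 0.12). The gene that rose was Icam1, an adhesion receptor, at 34.9 and 39.3 FPKM in riPSC, against 0 and 1.64 FPKM in D0 (log2 difference 3.79 ± 0.25).

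Hox genes, which record position along the body axis in fibroblasts, fell in 23 of 34 tested and rose in 2 (as deposited 18 and 3). Levels in D0 were modest throughout. Among the strongest falls were those of Hoxb6, at 0 and 0.189 FPKM in riPSC, against 8.88 and 11.3 FPKM in D0 (log2 difference -3.61 ± 0.13, limma adjusted p = 7.54e-11), Hoxd11, at 0 and 0.181 FPKM in riPSC, against 7.37 and 10.3 FPKM in D0 (log2 difference -3.90 ± 0.13), and Hoxa7, at 0 and 0.380 FPKM in riPSC, against 8.63 and 6.31 FPKM in D0 (log2 difference -3.34 ± 0.20). These 3 were near 0 in riPSC. The genes that rose were Hoxc12 and Hoxc13 at the end of the C cluster, Hoxc13 at 3.59 and 3.53 FPKM in riPSC, against 0 and 0.443 FPKM in D0 and Hoxc12 at 2.00 and 2.05 FPKM in riPSC with both D0 libraries listed at 0. They were named after their values were seen, because only 2 rose.

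**Figure D3:**
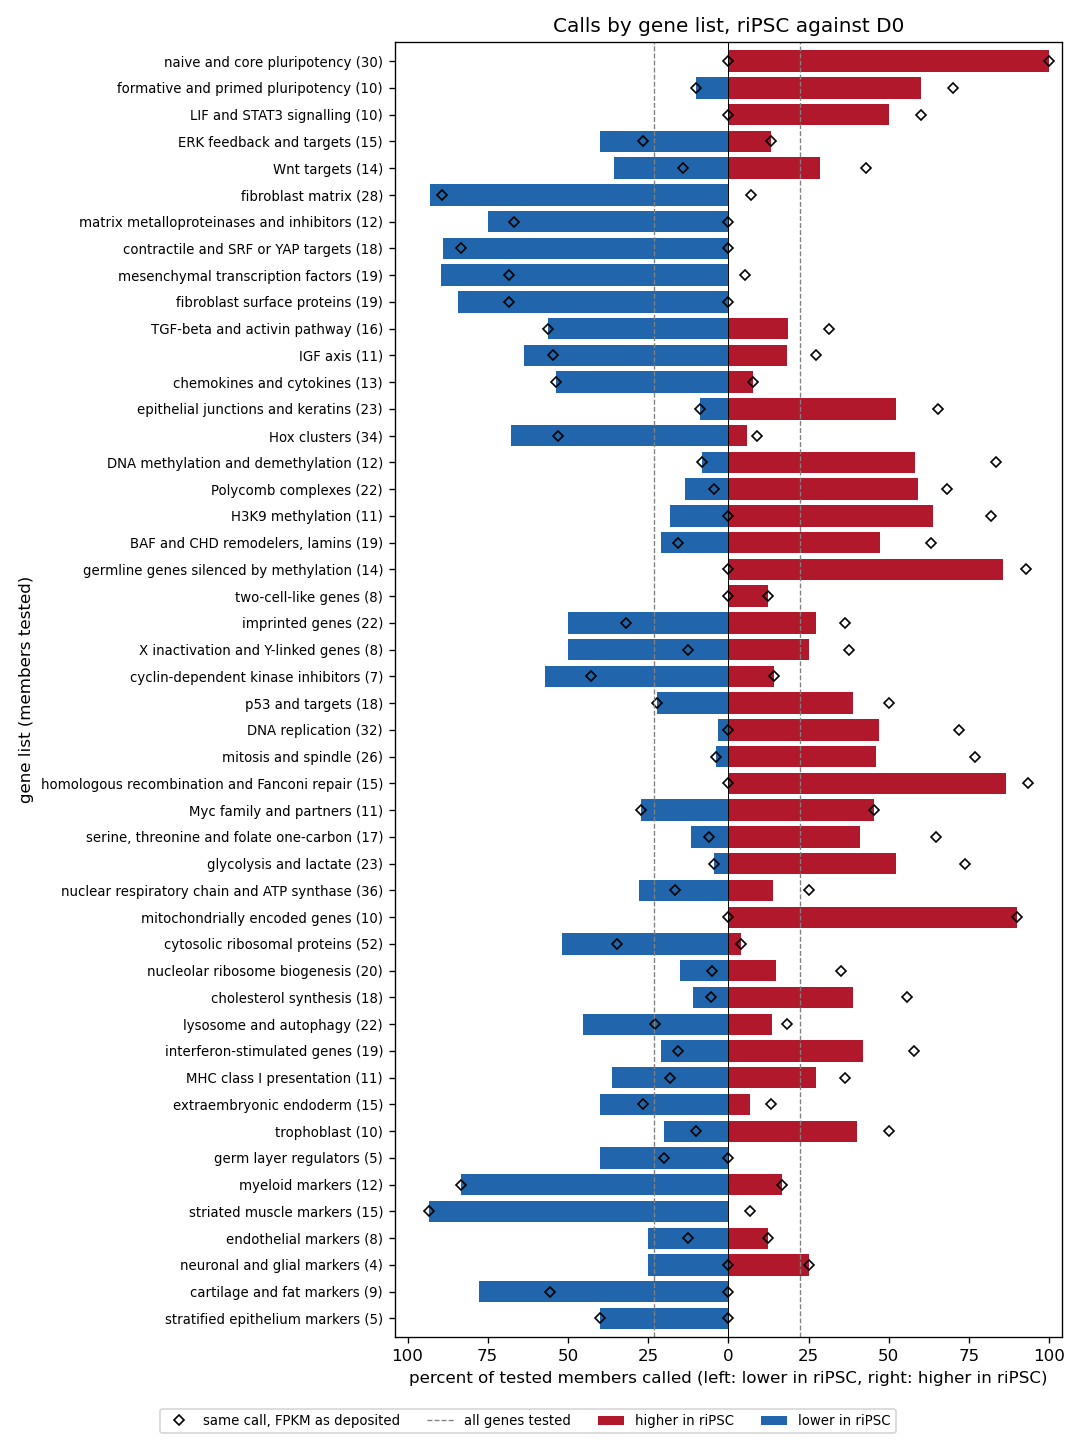
Share of tested members of each of 48 gene lists (rows, with the number tested) called higher in riPSC (red, to the right) or lower (blue, to the left), in percent of tested members. Diamonds give the shares with the deposited values and dashed lines those of all genes tested (22.4% higher and 23.1% lower); pluripotency reaches 100% higher, and matrix, contractile and striated muscle lists lie far to the left.

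Chromatin regulators were more often higher than lower in riPSC. Among 12 DNA methylation and demethylation genes, 7 rose and 1 fell (as deposited 10 and 1). Dnmt3l, the cofactor of the de novo methyltransferases, was at 19.11 and 22.2 FPKM in riPSC, against 0 and 0.0230 FPKM in D0 (log2 difference 3.89 ± 0.16, limma adjusted p = 2.89e-10). Dnmt3b, a de novo methyltransferase, had 10.5 and 11.6 FPKM in riPSC and was listed at 0 in both D0 libraries. Tet1, an oxidase of 5-methylcytosine, was at 14.8 and 16.8 FPKM in riPSC, against 0 and 0.0320 FPKM in D0 (log2 difference 2.75 ± 0.13), and Uhrf1, which recruits the maintenance enzyme, at 197 and 216 FPKM in riPSC, against 13.3 and 19 FPKM in D0 (log2 difference 2.86 ± 0.10). These 4 were low or listed at 0 in D0, Uhrf1 being the highest there. Of 22 Polycomb genes 13 rose and 3 fell (as deposited 15 and 1), with the chromodomain gene Cbx7 at 79.4 and 87.5 FPKM in riPSC, against 0 and 0.0834 FPKM in D0 (log2 difference 5.29 ± 0.14), Phc1 at 82.2 and 96.3 FPKM in riPSC, against 2.03 and 2.73 FPKM in D0 (log2 difference 3.83 ± 0.15) and the accessory factor gene Jarid2 at 40.0 and 37.0 FPKM in riPSC, against 0.445 and 0.839 FPKM in D0 (log2 difference 3.40 ± 0.23). Of 11 H3K9 methylation genes 7 rose and 2 fell (as deposited 9 and 0), led by the demethylase genes Kdm4c, at 18.8 and 18.5 FPKM in riPSC, against 0.190 and 0.639 FPKM in D0 (log2 difference 2.83 ± 0.15), and Kdm3a, at 23.3 and 27.4 FPKM in riPSC, against 0.392 and 1.06 FPKM in D0 (log2 difference 2.80 ± 0.12).

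Among 19 genes of BAF and CHD remodelers and lamins, 9 rose and 4 fell (as deposited 12 and 3). Lmna, which encodes lamins A and C of the nuclear envelope and is low in embryonic stem cells, was at 13.7 and 15.9 FPKM in riPSC, against 1006 and 748 FPKM in D0 (log2 difference -6.77 ± 0.22, limma adjusted p = 3.36e-11). Smarcd3, a BAF subunit of differentiated cells, was at 6.36 and 9.39 FPKM in riPSC, against 30.6 and 28.4 FPKM in D0 (log2 difference -2.69 ± 0.20), and Hmga2, an architectural protein of embryonic mesenchyme, at 5.63 and 5.85 FPKM in riPSC, against 36.7 and 52.9 FPKM in D0 (log2 difference -3.82 ± 0.13). Hells, a remodeler needed for DNA methylation, was higher, at 47.2 and 47.2 FPKM in riPSC, against 0.390 and 1.17 FPKM in D0 (log2 difference 3.69 ± 0.11). Lmna had the largest difference of this list.

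Germline genes whose promoters are methylated in somatic cells rose in 12 of 14 tested and fell in none (as deposited 13 and 0). All 19 listed members were under 0.5 FPKM in both D0 libraries. Those tested therefore passed the filter through other libraries and had little room to fall, so the direction of this count was largely set beforehand. Tuba3a, a testis alpha-tubulin, had 46.3 and 52.4 FPKM in riPSC and was listed at 0 in both D0 libraries (limma adjusted p = 1.19e-12). Tex19.1, a gene of transposon control, had 24.9 and 25 FPKM in riPSC and was listed at 0 in both D0 libraries, and Hormad1, a meiotic axis protein gene, had 20.8 and 21.7 FPKM in riPSC and was listed at 0 in both D0 libraries. Tdrd12, of the piRNA pathway, was at 33.6 and 32.3 FPKM in riPSC, against 0.0787 and 0 FPKM in D0. All 4 were listed at or near 0 in D0. Genes of the 2-cell-like state stayed low: 1 of 8 tested rose. This gene, Zscan4f, had 1.33 and 1.86 FPKM in riPSC and was listed at 0 in both D0 libraries, and reads of this family can be split between near-identical copies. Without D0 replicate 2 its call was lost, at a log2 difference of 0.97.

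Of 22 imprinted genes tested, 6 rose and 11 fell (as deposited 8 and 7, so the majority depended on the length trend). The strongest falls were in growth regulators. Igf2 and its neighbour H19 on chromosome 7 lay at 0.558 and 0.689 FPKM in riPSC, against 208 and 390.2 FPKM in D0 (log2 difference -8.43 ± 0.23, limma adjusted p = 6.50e-12) and at 7.38 and 7.17 FPKM in riPSC, against 1615 and 2703 FPKM in D0 (log2 difference -8.38 ± 0.16). Cdkn1c, a cyclin-dependent kinase inhibitor, was at 0.493 and 0.707 FPKM in riPSC, against 131 and 146 FPKM in D0 (log2 difference -6.74 ± 0.12), and Dlk1, a Notch ligand-like protein gene, at 1.47 and 1.22 FPKM in riPSC, against 79.6 and 151 FPKM in D0 (log2 difference -6.52 ± 0.33). All 4 were well expressed in both D0 libraries and in single digits or less in riPSC. Allele-specific levels were not measured. On the list of X inactivation and Y-linked genes, 2 of 8 rose and 4 fell (as deposited 3 and 1). Over all genes, 22.4% rose and 23.1% fell. Of the 4 falls, only that of Xist was also called as deposited, so the others depended on the removal of the length trend. Jpx and Kdm5d, 2 of those that fell, were under 1 FPKM in all 4 libraries. Xist, the RNA that coats the inactive X, was at 0.10 and 0.119 FPKM in riPSC, against 1.77 and 2.54 FPKM in D0 (log2 difference -2.81 ± 0.13); the labels give no sex, and reads of its antisense partner Tsix cannot be told apart without strand.

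Proliferation genes were more often higher than lower in riPSC. Of 32 DNA replication genes 15 rose and 1 fell (as deposited 23 and 0), and of 26 mitosis and spindle genes 12 rose and 1 fell (as deposited 20 and 1). Mcm4, a helicase subunit, was at 71.7 and 75.4 FPKM in riPSC, against 3.05 and 7.62 FPKM in D0 (log2 difference 3.01 ± 0.21, limma adjusted p = 3.61e-08), and Mcm2 at 119 and 132 FPKM in riPSC, against 9.07 and 15.3 FPKM in D0 (log2 difference 2.22 ± 0.13). Ccnb1, cyclin B1, was at 139 and 147 FPKM in riPSC, against 9.71 and 18.2 FPKM in D0 (log2 difference 2.58 ± 0.19), and the mitotic kinesin gene Kif20a at 57.5 and 64.6 FPKM in riPSC, against 2.91 and 7.01 FPKM in D0 (log2 difference 2.71 ± 0.23). The D0 libraries were lower and further apart from each other. Homologous recombination and Fanconi genes rose in 13 of 15 and fell in none (as deposited 14 and 0), with Brca1 at 18.5 and 19.5 FPKM in riPSC, against 0.359 and 0.497 FPKM in D0 (log2 difference 2.64 ± 0.10) and Fancd2 at 17.5 and 18.3 FPKM in riPSC, against 0.633 and 0.667 FPKM in D0 (log2 difference 2.38 ± 0.12).

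Of 7 cyclin-dependent kinase inhibitors 4 fell and 1 rose (as deposited 3 and 1). With the trend removed on the linear scale 2 fell and 1 rose, so a majority of falls depended on the scaling. Cdkn2b (p15) was at 2.23 and 2.68 FPKM in riPSC, against 28.4 and 33.2 FPKM in D0 (log2 difference -3.39 ± 0.15). Cdkn2a, which encodes p16 and ARF, was at 20.1 and 22.3 FPKM in riPSC, against 57.4 and 42.2 FPKM in D0 (log2 difference -1.38 ± 0.16, limma adjusted p = 4.54e-06); its call was lost when the length trend was removed on the linear scale, at a log2 difference of -0.86. Cdkn1b (p27) was higher, at 12.5 and 12.14 FPKM in riPSC, against 0.883 and 3.14 FPKM in D0 (log2 difference 1.46 ± 0.21), a call lost with a pseudocount of 5. Cdkn1a (p21) was not called, at 76.7 and 77.1 FPKM in riPSC, against 55.8 and 65.7 FPKM in D0 (log2 difference -0.30 ± 0.22, limma adjusted p = 0.231), and the libraries of the groups lay close. Of 18 genes of p53 and its targets 7 rose and 4 fell (as deposited 9 and 4). Over all genes 22.4% rose and 23.1% fell (as deposited 40.1% and 13%), so the falls lay near the share of all genes. Plk2 was at 4.70 and 4.78 FPKM in riPSC, against 24.6 and 34.8 FPKM in D0 (log2 difference -3.18 ± 0.12). Bax was at 185 and 206 FPKM in riPSC, against 730.0 and 583 FPKM in D0 (log2 difference -1.94 ± 0.14). Trp53inp1 was higher, at 25.1 and 24.3 FPKM in riPSC, against 0 and 0.894 FPKM in D0 (log2 difference 3.18 ± 0.30). Among Myc and its partners, 5 of 11 rose and 3 fell by both sets of values, and Mycn and Myc differed in direction. Mycn was at 45.1 and 48.1 FPKM in riPSC, against 0 and 0.529 FPKM in D0 (log2 difference 4.68 ± 0.15, limma adjusted p = 2.94e-11), and Myc at 1.08 and 1.03 FPKM in riPSC, against 8.25 and 14.8 FPKM in D0 (log2 difference -3.02 ± 0.17, limma adjusted p = 4.15e-09).

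Several genes of threonine, glycine and glucose use were high in riPSC and listed at or near 0 in D0. Tdh, the threonine dehydrogenase on which mouse embryonic stem cells depend, had 198 and 209 FPKM in riPSC and was listed at 0 in both D0 libraries (limma adjusted p = 7.14e-14). The glycine cleavage genes Amt and Gldc were at 49.2 and 54.0 FPKM in riPSC, against 0 and 0.204 FPKM in D0 (log2 difference 5.19 ± 0.12) and at 37.2 and 39.0 FPKM in riPSC, against 0 and 0.147 FPKM in D0 (log2 difference 4.18 ± 0.10). In all, 7 of 17 one-carbon genes rose and 2 fell (as deposited 11 and 1). Upp1, the uridine phosphorylase gene outside these lists, was at 392 and 411 FPKM in riPSC, against 0.351 and 1.15 FPKM in D0 (log2 difference 7.61 ± 0.18). Of 23 glycolysis genes 12 rose and 1 fell (as deposited 17 and 1). Slc2a3, the glucose transporter GLUT3, was at 349 and 362 FPKM in riPSC, against 1.35 and 0.0231 FPKM in D0 (log2 difference 6.74 ± 0.33, limma adjusted p = 1.57e-09), and the hexokinase gene Hk2 at 75.1 and 80.1 FPKM in riPSC, against 2.22 and 3.13 FPKM in D0 (log2 difference 3.43 ± 0.13). Pdk1, which restrains pyruvate entry into mitochondria, was at 23.0 and 26.1 FPKM in riPSC, against 0 and 0.342 FPKM in D0 (log2 difference 3.33 ± 0.13). Both D0 libraries were low for all 3. Cholesterol synthesis genes rose in 7 of 18 and fell in 2 (as deposited 10 and 1), Dhcr7 being at 49.2 and 50 FPKM in riPSC, against 2.11 and 3.19 FPKM in D0 (log2 difference 2.83 ± 0.14).

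Nuclear genes of the respiratory chain and ATP synthase showed no direction that held across scalings, with 5 of 36 higher and 10 lower (as deposited 9 and 6). Cox7a1, a heart and muscle isoform of a cytochrome oxidase subunit, was at 21.1 and 18.8 FPKM in riPSC, against 1.09 and 0.603 FPKM in D0 (log2 difference 3.39 ± 0.28), and Ndufa2, of complex I, at 106 and 101.1 FPKM in riPSC, against 1213 and 610.5 FPKM in D0 (log2 difference -3.17 ± 0.25). Mitochondrially encoded genes rose in 9 of 10 tested, with mt-Co1 at 7625 and 7842 FPKM in riPSC, against 82.5 and 305 FPKM in D0 (log2 difference 5.40 ± 0.47, limma adjusted p = 3.32e-07) and mt-Cytb at 1491 and 1522 FPKM in riPSC, against 7.92 and 29.4 FPKM in D0 (log2 difference 6.32 ± 0.55). These values are uncertain: besides the 3 genes listed at 0 in all 4 libraries, mt-Nd4l was listed at 0 in 1 D0 library and at 5415 FPKM in the other, and reads can be shared with nuclear copies. Of the 13 listed genes, 4 were at 0 in both riPSC libraries, against 3 in both D0 libraries. The 1 tested gene that was not called lay lower in both riPSC libraries than in both D0 libraries with the trend removed. A pseudogene on chromosome 1, Gm28439, had 38760.0 and 37892 FPKM in riPSC and was listed at 0 in D0.

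Cytosolic ribosomal protein genes fell in 27 of 52 and rose in 2 (as deposited 18 and 2). Rps19 was at 984 and 1008 FPKM in riPSC, against 4357 and 3159.5 FPKM in D0 (log2 difference -2.71 ± 0.22, limma adjusted p = 1.49e-07) and Rplp2 at 634 and 668 FPKM in riPSC, against 4582 and 2422 FPKM in D0 (log2 difference -2.65 ± 0.26). These genes took a larger part of the D0 libraries, and their pseudogenes can share reads. Rps19 counted as 4685 exonic bases in the trend removal, and its difference as deposited was -1.90. The germline copy Rpl39l was higher, at 48.0 and 45.4 FPKM in riPSC, against 7.45 and 6.2 FPKM in D0 (log2 difference 2.43 ± 0.13). Nucleolar factors of ribosome biogenesis were split, with 3 of 20 higher and 3 lower (as deposited 7 and 1). Dkc1, the pseudouridine synthase of telomerase and snoRNA particles, was at 119.8 and 119.8 FPKM in riPSC, against 7.16 and 11.2 FPKM in D0 (log2 difference 2.87 ± 0.17), and Fbl, fibrillarin, at 170.0 and 182 FPKM in riPSC, against 447 and 356 FPKM in D0 (log2 difference -1.92 ± 0.19); the call of Fbl was lost with quantile normalization. Lysosome and autophagy genes fell in 10 of 22 and rose in 3 (as deposited 5 and 4), with cathepsin K, Ctsk, at 0.443 and 0.348 FPKM in riPSC, against 10.8 and 13.3 FPKM in D0 (log2 difference -3.42 ± 0.20) and the autophagy kinase gene Ulk1 at 60.5 and 63.4 FPKM in riPSC, against 2.38 and 2.70 FPKM in D0 (log2 difference 3.10 ± 0.13).

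Immune genes were mixed. Of 19 interferon-stimulated genes 8 rose and 4 fell (as deposited 11 and 3). Ifitm1, a membrane restriction factor that pluripotent cells express, was at 72.0 and 76.2 FPKM in riPSC, against 1.64 and 4.14 FPKM in D0 (log2 difference 4.15 ± 0.31, limma adjusted p = 7.99e-08), while Isg15, an interferon-induced ubiquitin-like protein gene, was at 4.32 and 4.36 FPKM in riPSC, against 16.5 and 22.4 FPKM in D0 (log2 difference -2.09 ± 0.12). Of 11 genes of MHC class I presentation 3 rose and 4 fell (as deposited 4 and 2, so the majority depended on the length trend). H2-K1, a class I heavy chain, was at 39.6 and 35.0 FPKM in riPSC, against 4.93 and 9.05 FPKM in D0 (log2 difference 1.79 ± 0.16), and the immunoproteasome gene Psmb10 at 10.9 and 12 FPKM in riPSC, against 68.6 and 56.1 FPKM in D0 (log2 difference -2.56 ± 0.16). Class I heavy chain genes resemble each other, so their reads may be split.

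Markers of muscle and macrophages were measurable in D0 and mostly lower in riPSC. Striated muscle genes fell in 14 of 15 tested (as deposited 14 fell and 1 rose), and 18 of them summed to 119 and 122 FPKM in riPSC, against 826 and 632 FPKM in D0. Tnnt2 and Tnnc1, troponin subunits of slow and cardiac muscle, were at 0.0649 and 0.220 FPKM in riPSC, against 68.8 and 45.3 FPKM in D0 (log2 difference -6.77 ± 0.29) and at 0.331 and 0.443 FPKM in riPSC, against 174 and 99.95 FPKM in D0 (log2 difference -6.79 ± 0.25). Both were near 0 in riPSC. Most of the riPSC sum came from Mylpf, at 98.9 and 100.7 FPKM in riPSC, against 45.4 and 46.7 FPKM in D0, which was not called and was the 1 higher gene with the deposited values. Myeloid genes fell in 10 of 12 and rose in 2, Cd68 and Laptm5, by both sets of values. C1qb, a complement gene of macrophages, was at 0.703 and 0.747 FPKM in riPSC, against 23.9 and 26.1 FPKM in D0 (log2 difference -4.12 ± 0.13, limma adjusted p = 2.94e-11), and Csf1r, the receptor for macrophage growth factor, at 0.0746 and 0.0612 FPKM in riPSC, against 3.38 and 4.43 FPKM in D0 (log2 difference -3.17 ± 0.13). The pan-leukocyte gene Ptprc was near 0 in all 4 libraries, at 0.0164 and 0 FPKM in riPSC, against 0 and 0.131 FPKM in D0. The 15 myeloid genes summed to 47.9 and 48.6 FPKM in riPSC, against 130.4 and 143.5 FPKM in D0, with Laptm5, named after its values were seen, at 30.7 and 30.9 FPKM in riPSC. The part of such cells in the D0 values was not tested.

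Cartilage and fat markers fell in 7 of 9 (as deposited 5), Col2a1 being at 1.21 and 1.16 FPKM in riPSC, against 8.17 and 9.91 FPKM in D0 (log2 difference -3.38 ± 0.27). In the endothelial list 1 of 8 rose and 2 fell (as deposited 1 and 1), shares near those of all genes (22.4% higher and 23.1% lower), and 1 of the 2 falls, Kdr, was under 1 FPKM in all 4 libraries. Pecam1, an adhesion gene that mouse pluripotent cells also express, rose, at 45.1 and 46.9 FPKM in riPSC, against 0.0663 and 0 FPKM in D0 (log2 difference 4.48 ± 0.13), and Flt1, a VEGF receptor, fell, at 0.380 and 0.363 FPKM in riPSC, against 5.59 and 6.54 FPKM in D0 (log2 difference -3.64 ± 0.10). The defining endothelial genes Cdh5 and Erg were listed at 0 in all 4 libraries. In the short lists of germ layer, neuronal and stratified epithelium genes, 2 of 5, 1 of 4 and 2 of 5 fell and 0, 1 and 0 rose. As deposited, 1, 0 and 2 fell and 0, 1 and 0 rose. With so few members these counts cannot be set apart from the shares of all genes. Zic1, 1 of the 2 germ layer falls, was under 1 FPKM in all 4 libraries and not called as deposited. Stmn2, a neuronal microtubule regulator, rose, at 103 and 108 FPKM in riPSC, against 3.50 and 3.96 FPKM in D0 (log2 difference 3.54 ± 0.12), while Nes, the intermediate filament nestin, fell, at 4.55 and 4.89 FPKM in riPSC, against 93.9 and 74.5 FPKM in D0 (log2 difference -4.93 ± 0.23). Extraembryonic endoderm genes fell in 6 of 15 and rose in 1 (as deposited 4 and 2, on the linear scale 4 and 1). Of the 16 listed, 10 were under 0.5 FPKM in both D0 libraries, so these counts say little of that lineage. The falls were led by the basement membrane gene Col4a1, at 5.13 and 5.29 FPKM in riPSC, against 30.0 and 42.5 FPKM in D0 (log2 difference -3.68 ± 0.14). The endoderm regulator gene Sox17 was not called, at 0.285 and 0.608 FPKM in riPSC, against 0 and 0 FPKM in D0. Of 10 trophoblast genes 4 rose and 2 fell (as deposited 5 and 1); Tfap2c, also a germ cell factor, had 30.8 and 32.6 FPKM in riPSC and was listed at 0 in both D0 libraries, and Cdx2 was listed at 0 in all 4 libraries.

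Some genes were at 10 FPKM or more in both libraries of a group and at or near a listed 0 in the other. At 10 FPKM or more in both riPSC libraries and under 0.1 FPKM in both D0 libraries stood 224 genes, 187 of them protein coding and 191 of them listed at 0 in both D0 libraries. The reverse held for 14 genes, 10 of them protein coding. Mgp, an inhibitor of calcification, had the highest D0 level of the 14, at 0 and 0.0832 FPKM in riPSC, against 215 and 281 FPKM in D0 (log2 difference -8.08 ± 0.13). Actc1, cardiac actin, was listed at 0 in both riPSC libraries and had 26.5 and 39.3 FPKM in D0; it was named after its values were seen. These limits were applied to the deposited values. Over all tested genes, 774 were listed at 0 in both riPSC libraries and 2470 in both D0 libraries. The 224 genes include Gm28439, whose 0 in D0 is uncertain, so a listed 0 here does not show that a gene was silent.

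Calls were spread over the genome. By chromosome, from 17.9% of tested genes (chromosome 19) to 27.2% (chromosome 12) were higher among autosomes, and on the X 25.4% were higher and 20.1% lower. Of 353 long intergenic RNAs, 33.7% were higher and 11% lower, against 22.3% and 24.3% of 13929 coding genes. A gene could pass the filter through libraries other than D0. Of all tested genes, 2470 were listed at 0 in both D0 libraries, against 774 in both riPSC libraries. How far this weighs on the shares of long intergenic RNAs was not tested. No test was made of these shares.

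Promoters of the most changed genes held few CpG dinucleotides. The median ratio of observed to expected CpG over the 250 bases was 0.474 in 100 promoters of genes at least 16-fold higher and 0.558 in 151 of genes at least 16-fold lower, against 0.717 in all 10816. A ratio under 0.4 was found in 43% of the promoters of genes at least 16-fold higher, in 33.8% of those at least 16-fold lower, and in 18.5% of all. Genes called at any size did not stand apart in this way, with medians of 0.732 for 2423 higher and 0.693 for 2603 lower genes. A TATAAA on either strand was found in 13.9% of promoters of genes at least 16-fold lower, and in 5% of those at least 16-fold higher, against 6.64% of all. No test was made of these shares, and the 16-fold groups were chosen by the same values as the calls.

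**Figure D4:**
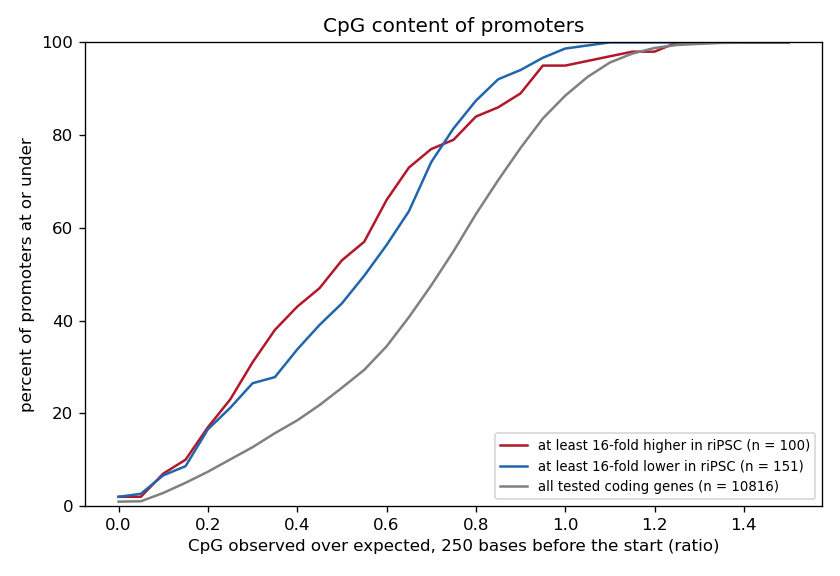
Cumulative percent of promoters (vertical axis) at or under a ratio of observed to expected CpG (horizontal axis) in the 250 bases before the RefSeq start. Promoters of genes at least 16-fold higher in riPSC (red, n = 100, median 0.474) and at least 16-fold lower (blue, n = 151, median 0.558) lie left of all tested coding genes (grey, n = 10816, median 0.717).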

How the data were processed

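RNA of 18 mouse libraries was sequenced as 150-base reads on an Illumina NovaSeq, per the labels' protocols. The authors deposited 1 table of FPKM per gene for each library, made with fastp 0.20.1, HISAT2 2.2.1 and StringTie 2.0 on mm10, per the submitters' processing notes; the unit FPKM was inferred from the values. Annotation release and strand setting are not given in the sources used here. Gene lengths and positions came from the GENCODE vM21 annotation (GRCm38), and promoters from RefSeq on GRCm38.p6, which held 10816 of 13929 tested coding genes.

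For every library, the departure of log2(FPKM + 1) from the average library was smoothed against log2 exonic length by lowess (span 0.3, 3 iterations), and the smooth curve was subtracted. Groups were fitted with limma 3.58.1 in R 4.3.3 over all 18 libraries, with 9 residual degrees of freedom, and p-values were adjusted by the Benjamini-Hochberg method over 16439 genes. The two-sided test was also run on simulated data, with the same spread in every group and differences added only to genes well above 0. That run does not cover the greater spread of D0 or changes of genes near 0, and its outcome is not used here. Figures used Python 3.11.15, pandas 2.3.3 and matplotlib 3.10.9. Since the tables hold no counts, no count model or counting interval was used. Every library and every file entered the fit; mESC values are given for scale.

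Named genes were the 12 highest and 12 lowest differences among called genes with a mean of at least 10 FPKM in the higher group, up to 4 called members with the largest difference in each of 48 lists, 23 fixed genes, and members given as not called; not all are printed. The members and lists were chosen with earlier results of these data known. Alternatives covered the pseudocount, the filter, the scaling, the trend, the variance model, a replicate block and each library left out.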

Additional observations from a re-analysis of the deposited data

How the results depend on the processing

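Of the 7481 calls (3678 higher, 3803 lower), a pseudocount of 5 left 3865 (1926 higher, 1939 lower), and without a fold limit 12569 genes passed (6145 higher, 6424 lower). The values as deposited gave 6595 higher and 2134 lower genes, so 75.6% of calls were higher, against 49.2% with the trend removed. That share was 63.8% with linear-scale removal (4953 higher, 2810 lower), 60.1% without a filter (4704 and 3121) and 58.5% with median-of-ratios scaling (4848 and 3437). The median difference of all genes was 0.20 with that scaling and -0.01 with quantile normalization, against -0.06 with the trend removed. Leaving out 1 library at a time gave 7078 to 7859 calls, 3462 to 3838 higher and 3616 to 4021 lower; a lone library was then taken to vary like the other groups.

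A replicate block gave 7480 calls, 7478 of them unchanged, 3 lost and 2 gained. Same-numbered libraries of riPSC and D0 showed no common deviation across genes (r = -0.02), and r ran from -0.175 to 0.242 over 36 pairs of groups. Each group gives only the difference between its replicates, so these values cannot exclude that same-numbered libraries share a culture or batch. Whether the numbers pair the samples was not settled. Among lists, the majority direction turned with some settings for Wnt targets, MHC class I presentation, imprinted genes, respiratory chain genes and the X and Y list; with quantile normalization the respiratory chain list had 9 higher and 4 lower.

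Of 206 named genes, 181 stayed on the same side of the call under all 17 settings listed at the outset and under linear-scale removal. The latter was added after seeing the data. Of the single-gene values, 43 lost a call and 17 gained one. Most of these genes were picked for large differences, so their stability says little of all calls. Over all genes, 7481 calls became 3865 with a pseudocount of 5. Without D0 replicate 2, Zscan4f lost its call and Dcn gained one. Sox17, under 1 FPKM throughout, had a difference of 1.14 with a pseudocount of 0.1, against -0.30 with 1. Genes near 0 are the weakest point: subtraction of the trend moves them, and a listed 0 can be a failed estimate. Depth behind single values is unknown.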
